A study of Mus musculus with 6 samples.

Results

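Mast cells and basophils are the IgE-armed granulocytes of blood and tissue, and the genes described here encode what they release and how they sense IgE and alarm signals. The set was defined by name as 10 genes: the granule proteases Mcpt8, Cpa3, Cma1 and Prss34, the mediator enzymes Hdc and Cyp11a1, the amine transporter Slc18a2, the receptor genes Fcer1a and Il1rl1, and the signalling regulator Rgs13. A gene was taken when a probe set of the array was annotated to it alone, which gave 9 of the 10 genes, with 1 probe set each, among 19937 genes in all. Il1rl1, which encodes the interleukin-33 receptor, was not analysed here. The arrays were Affymetrix mouse gene arrays hybridised with RNA of PreGMs, the pre-granulocyte-macrophage progenitors, sorted from the bone marrow of female C57BL/6 mice, 3 mice labelled Cebpa flox/flox and 3 labelled Cebpa flox/flox;Mx1Cre, so replicates are separate mice. All 6 mice carried the floxed Cebpa alleles and received pIC 18 days before the bone marrow was taken, so the Mx1Cre transgene is what separates the labels. pIC induces interferon, which switches on the Mx1 promoter in blood-forming cells and in other interferon-responsive tissue. No source used here gives the age of the mice. The study compared the labels to see what loss of Cebpa does to PreGMs.

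IgE bound to the high-affinity receptor on mast cells and basophils is cross-linked by antigen, and the kinases and adaptors below the receptor then release granules. Granules hold proteases and histamine packed on acidic proteoglycan, and cytokines and lipid mediators follow. Both lineages arise from myeloid progenitors in which GATA and C/EBP transcription factors act together, and C/EBPα, the product of Cebpa, is known to favour the basophil over the mast cell fate.

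Cebpa itself ran against the genotype labels, being 2.17 ± 0.14 log2 units (SE) higher in the arrays labelled Mx1Cre (limma adjusted p = 2.65e-05). Neutrophil and monocyte marker lists, described below, also read higher under that label. Where the Cebpa probes lie relative to the deleted part is not known here, and whether the labels were exchanged was not tested. Every direction below follows the labels as deposited and would turn if they were exchanged. The sort gate keeps cells with Kit and leaves out those with endoglin, FcγRII, CD41 or CD150. Its gene Kit read 10.4 to 10.7 over the 6 arrays. Slamf1, which encodes CD150, read 5.21 to 5.53, below the lower quartile of gene levels at 5.63, while Itga2b (CD41, 7.51 to 8.06), Eng (endoglin, 7.16 to 7.46) and Fcgr2b (6.61 to 7.25) lay above it. Of 6 gate genes measured, Fcgr2b rose by 0.43 log2 units (limma adjusted p = 0.041) and Fcgr3, which is not among the excluded antigens named, fell. Fcgr2b failed with median centring and with every probe set as its own row and, of the 6 fits with an array left out, passed only without Mx1Cre replicate 1. Ly6a, which encodes Sca1, was not analysed here. Correlations of whole arrays over genes, which are not independent replicates, were 0.992 to 0.995 for the same label and 0.984 to 0.99 for different labels.

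The promoters of the called members with a single start in the RefSeq table (GRCm38.p6) are shown because these genes moved in opposite directions. Each line gives the 250 bases before the start, 5′ to 3′ on the gene's strand, and capitals mark matches on either strand to GATAA, the core read by GATA factors, or to TTGCNNAA, a form of the C/EBP site. Mcpt8 lies at chr14:56085198-56085447, Hdc at chr2:126618679-126618928, Cpa3 at chr3:20242182-20242431 and Fcer1a at chr1:173227230-173227479, all on the minus strand.
Mcpt8: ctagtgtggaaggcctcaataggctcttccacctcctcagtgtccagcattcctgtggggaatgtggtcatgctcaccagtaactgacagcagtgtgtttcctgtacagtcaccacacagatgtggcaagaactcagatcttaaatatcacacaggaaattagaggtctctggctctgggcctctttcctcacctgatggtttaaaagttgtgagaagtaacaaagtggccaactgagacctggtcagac
Hdc: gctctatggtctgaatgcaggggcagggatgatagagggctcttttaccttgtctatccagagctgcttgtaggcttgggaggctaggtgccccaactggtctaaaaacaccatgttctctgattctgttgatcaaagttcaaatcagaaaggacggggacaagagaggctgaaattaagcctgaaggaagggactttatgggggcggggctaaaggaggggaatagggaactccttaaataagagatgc
Cpa3: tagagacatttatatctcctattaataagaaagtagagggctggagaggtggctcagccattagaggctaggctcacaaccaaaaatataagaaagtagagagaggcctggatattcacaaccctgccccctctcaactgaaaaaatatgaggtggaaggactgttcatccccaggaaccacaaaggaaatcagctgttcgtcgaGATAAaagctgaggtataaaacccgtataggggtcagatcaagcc
Fcer1a: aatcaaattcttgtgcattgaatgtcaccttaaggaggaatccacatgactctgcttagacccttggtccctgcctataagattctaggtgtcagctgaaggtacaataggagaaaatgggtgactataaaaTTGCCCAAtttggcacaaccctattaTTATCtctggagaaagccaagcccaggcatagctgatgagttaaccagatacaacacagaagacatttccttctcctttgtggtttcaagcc
The windows of Mcpt8 and Hdc, which rose, hold neither motif. The Cpa3 window holds GATAA 41 bases before the start, and that of Fcer1a holds GATAA on the opposite strand 88 bases before the start and TTGCNNAA 111 bases before it. Of the 9 measured members 6 hold GATAA in at least 1 window and 2 hold TTGCNNAA, and no match to one overlaps a match to the other. The motifs are in 22.6% and 9.56% of all 32851 promoter windows of the same length. Those shares are per window, whereas the members are counted per gene, over 10 windows. Cyp11a1, which fell too, has 2 starts in the table and is not shown. Neither of its windows holds GATAA, and 1 holds TTGCNNAA 125 bases before the start. Prss34, Slc18a2, Cma1 and Rgs13, which were not called, each hold GATAA. A match is a description of letters only, and no match says only that these letters are not in the window.

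The effector genes did not move as a block. In the arrays labelled Mx1Cre, the basophil protease gene Mcpt8 and the histamine-forming enzyme gene Hdc rose, while the protease gene Cpa3, the steroid enzyme gene Cyp11a1 and the IgE receptor chain gene Fcer1a fell. The other 4 measured members did not pass the test. By limma adjusted over all genes at 0.05, 2 of the 9 were higher and 3 lower, where 4.91% of all genes were called, 2.63% higher and 2.28% lower. The median difference of the 9 was -0.0025 log2 units, against -0.011 over all genes. The values of the labels did not overlap for 6 of the 9, against 21.6% of all genes. The members were chosen with earlier results of these data known, so these shares are not independent evidence. In bulk RNA of a sorted gate, fewer cells of a type and less RNA per cell cannot be told apart.

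**Figure D1:**
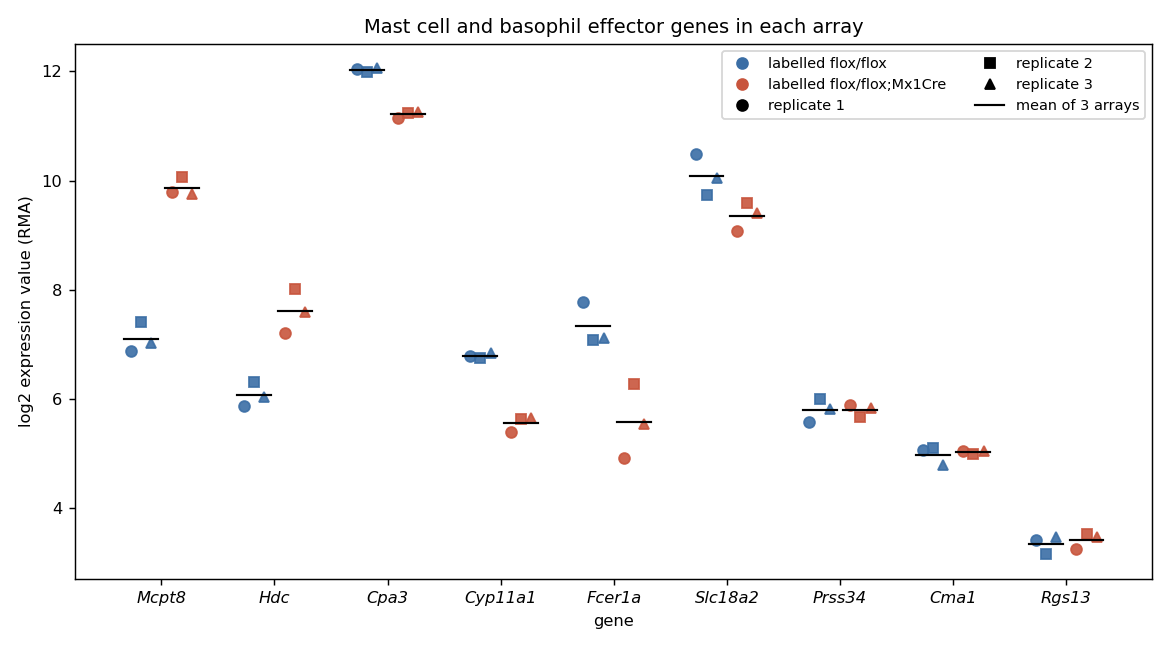
Log2 expression value (y axis, RMA scale) of the 9 measured effector genes (x axis) in the 3 arrays labelled flox/flox (blue) and the 3 labelled flox/flox;Mx1Cre (red), with a marker shape for each replicate number and a line at each mean. Mcpt8 and Hdc sit higher in all red arrays, Cpa3, Cyp11a1, Fcer1a and Slc18a2 lower, and Prss34, Cma1 and Rgs13 overlap.

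Mcpt8 encodes mast cell protease 8, a serine protease that in mice marks basophils. It read 6.88, 7.40 and 7.02 in flox/flox replicates 1, 2 and 3, and 9.79, 10.07 and 9.76 in Mx1Cre replicates 1, 2 and 3. The lowest Mx1Cre array lay 2.35 log2 units above the highest flox/flox array. Mcpt8 rose by 2.77 ± 0.14 log2 units (SE), 6.81-fold (limma adjusted p = 5.04e-06), the 10th largest rise of all genes. For Mcpt8, as for each other gene whose labels do not overlap, the two-sided exact permutation p was 0.1, and a design of 3 against 3 can go no lower.

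Cpa3 encodes carboxypeptidase A3, a granule exopeptidase of mast cells and basophils that blood progenitors also transcribe. Its flox/flox arrays read 12.04, 11.99 and 12.06 and its Mx1Cre arrays 11.14, 11.25 and 11.26. It stayed bright under both labels, and the arrays of a label lay within 0.12 log2 units of each other. Cpa3 fell by 0.81 ± 0.08 log2 units (SE), 1.75-fold (limma adjusted p = 0.000573).

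Cma1, the chymase of connective tissue mast cells, and Prss34, a tryptase-like protease of basophils, did not pass. Cma1 read 5.06, 5.10 and 4.79 in the flox/flox arrays and 5.04, 4.99 and 5.04 in the Mx1Cre arrays. All 6 values are dim, below the lower quartile of gene levels. Its difference was 0.04 log2 units with a 95% interval of -0.18 to 0.27 (limma adjusted p = 0.916). Prss34 read 5.58, 6.01 and 5.82 against 5.89, 5.67 and 5.84. Its difference was -0.0025 log2 units, with an interval of -0.27 to 0.26 (limma adjusted p = 0.996). Neither interval reaches a change of the size of Mcpt8's, but probe sets this dim can understate a change.

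Hdc encodes histidine decarboxylase, the only enzyme that makes histamine. It read 5.88, 6.31 and 6.03 in the flox/flox arrays and 7.21, 8.02 and 7.60 in the Mx1Cre arrays, and the labels were 0.91 log2 units apart at their nearest. The rise was 1.54 ± 0.19 log2 units (SE), or 2.91-fold (limma adjusted p = 0.00118). Slc18a2 encodes the vesicular monoamine transporter that loads histamine and serotonin into granules. It read 10.49, 9.73 and 10.04 in the flox/flox arrays against 9.08, 9.58 and 9.40, so every Mx1Cre array was lower, by as little as 0.15 log2 units at the nearest pair. The difference was -0.74 ± 0.18 log2 units (SE), with a limma adjusted p of 0.0508, just outside the threshold. Without flox/flox replicate 2 it was -0.91 and passed (adjusted p = 0.0243, in a range over all alternatives of 0.0243 to 0.483).

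Of 9 measured amine handling genes, Hdc, Hnmt and Maoa were higher and 0 lower. Over all genes, 2.63% were higher and 2.28% lower. Hnmt, the methyltransferase that inactivates histamine inside cells, rose by 0.68 ± 0.14 log2 units (SE, limma adjusted p = 0.0219). Maoa, a monoamine oxidase, rose by 0.96 ± 0.17 (SE, limma adjusted p = 0.012). Maoa passed with any array left out, and Hnmt in 2 of 6 such fits, failing without flox/flox replicate 2, flox/flox replicate 3, Mx1Cre replicate 2 or Mx1Cre replicate 3 (adjusted p 0.0112 to 0.0905). Neither passed when every probe set of the table was fitted as its own row. Ddc, Tph1, Maob, Slc6a4 and Slc18a1, genes of serotonin and amine metabolism and transport, did not pass, with differences from -0.37 to -0.01 log2 units.

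Cyp11a1 encodes the side-chain cleavage enzyme that turns cholesterol into pregnenolone, the entry to steroid synthesis, and is transcribed by mast cells and basophils as well as by steroid glands. The flox/flox arrays read 6.78, 6.74 and 6.84 and the Mx1Cre arrays 5.39, 5.63 and 5.65. All flox/flox values lay near the median gene level of 6.64, and the Mx1Cre values at about the lower quartile. Cyp11a1 fell by 1.23 ± 0.10 log2 units (SE), 2.35-fold (limma adjusted p = 0.000103). Star and Hsd3b1, which act before and after it in steroid synthesis, did not pass, at 0.02 and -0.09 log2 units. Hsd3b1 was very dim, reading 3.55 to 3.72 over the 6 arrays, where a change can be understated.

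Fcer1a encodes the IgE-binding α chain of the high-affinity receptor. It read 7.79, 7.08 and 7.12 in the flox/flox arrays and 4.91, 6.27 and 5.55 in the Mx1Cre arrays. The labels do not overlap, but the Mx1Cre arrays span 1.35 log2 units, and the spread of Fcer1a within labels was wider than that of 99.9% of genes. Fcer1a fell by 1.75 ± 0.30 log2 units (SE), or 3.37-fold (limma adjusted p = 0.00804), the 9th largest fall of all genes. The call was lost when every probe set of the table was fitted as its own row (adjusted p = 0.109, in a range over all alternatives of 0.00163 to 0.406).

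The chains of the IgE receptor parted. Ms4a2, which encodes the signal-amplifying β chain, rose while Fcer1a fell. Ms4a2 read 6.97, 6.90 and 7.03 in the flox/flox arrays and 7.73, 8.74 and 8.28 in the Mx1Cre arrays. Its rise was 1.28 ± 0.20 log2 units (SE), with a limma adjusted p of 0.00529. It too was lost when every probe set was fitted as its own row. Fcer1g, the γ chain that other Fc receptors share, read 9.01 to 9.39 over all 6 arrays and did not pass (-0.04 ± 0.11 log2 units, SE).

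Below the receptor, 4 of the 13 measured genes of the IgE receptor list fell, Ms4a2 alone rose and 8 did not pass. The median of the list was -0.17 log2 units. Over all genes, 2.28% fell and 2.63% rose. Lat, the adaptor that nucleates the signalling complex, read 10.36, 10.46 and 10.34 in the flox/flox arrays and 8.64, 9.28 and 9.02 in the Mx1Cre arrays. Lat fell by 1.40 ± 0.15 log2 units (SE, limma adjusted p = 0.00054). Lcp2, which encodes the adaptor SLP-76, fell by 0.63 ± 0.09 (SE, limma adjusted p = 0.00366). Syk, the kinase that reads the phosphorylated chains, and the adaptor gene Lat2 were lower, at -0.51 and -0.43 log2 units. Of the 6 fits with an array left out, Syk passed only without flox/flox replicate 2 and Lat2 only without Mx1Cre replicate 3, so the list's 4 falls became 2 without flox/flox replicate 1, flox/flox replicate 3, Mx1Cre replicate 1 or Mx1Cre replicate 2. Syk also failed with median centring. These genes serve receptors of T, NK and myeloid cells too.

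**Figure D2:**
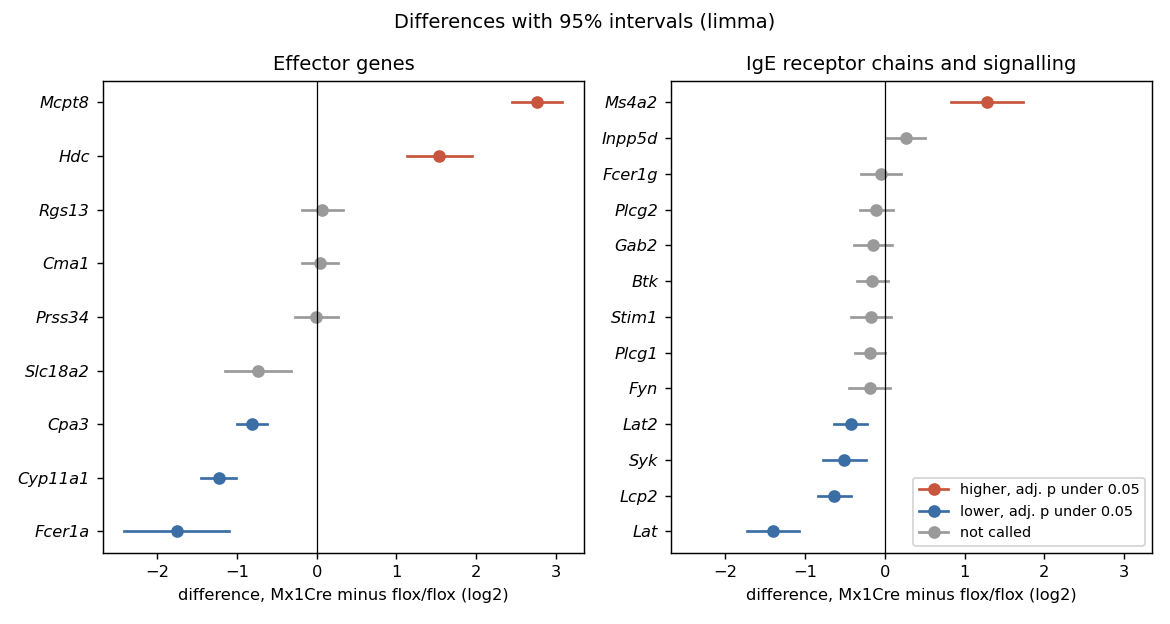
Difference in log2 value, arrays labelled Mx1Cre minus those labelled flox/flox (x axis), with its 95% limma interval, for the 9 effector genes (left) and the 13 measured IgE receptor and signalling genes (right); colours mark genes higher, lower or not called at an adjusted p under 0.05. Mcpt8, Hdc and Ms4a2 lie to the right of 0, and Fcer1a, Cyp11a1, Cpa3 and Lat to the left.

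Rgs13 encodes a regulator that shortens G protein signalling and is known to restrain mast cell degranulation. It was very dim, reading 3.41, 3.15 and 3.48 in the flox/flox arrays and 3.25, 3.53 and 3.47 in the Mx1Cre arrays. The labels overlap, and the difference was 0.07 log2 units with a 95% interval of -0.19 to 0.33 (limma adjusted p = 0.859). Of 9 measured RGS family genes, Rgs1 and Rgs18 fell and 0 rose, where 2.28% of all genes fell and 2.63% rose. Rgs1, a regulator induced on leukocyte activation, fell by 1.07 ± 0.13 log2 units (SE, limma adjusted p = 0.00106). Rgs18, a regulator of platelets and their precursors, fell by 0.46 ± 0.10 (SE, limma adjusted p = 0.0339). Rgs18 failed with the replicate number as a block, with every probe set as its own row and, of the 6 fits with an array left out, passed only without Mx1Cre replicate 1. Rgs2, Rgs3, Rgs14, Rgs16, Rgs19 and Rgs21 did not pass, at -0.13 to 0.22 log2 units.

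Mcpt8 and Cma1 belong to a cluster of serine protease genes on chromosome 14 that also holds cathepsin G and the granzymes. Of 15 listed genes of the cluster 13 were measured, and 2 rose, 2 fell and 9 did not pass. The 9 that did not pass were dim, with mean levels below the lower quartile of gene levels, where a change can be understated. The chymase-type genes Cma1, Mcpt1, Mcpt2 and Mcpt4 stand at 1 end of the listed order and differed by -0.07 to 0.06 log2 units. Mcpt8 and Ctsg, the neutrophil and monocyte protease cathepsin G, are next to each other in that order, and both rose. Ctsg read 7.58, 8.67 and 7.91 in the flox/flox arrays and 11.54, 11.66 and 11.57 in the Mx1Cre arrays, a rise of 3.54 ± 0.22 log2 units (SE, limma adjusted p = 2.02e-05). Gzme, Gzmd, Gzmg, Gzmn and Gzmf follow, at -0.14 to 0.18 log2 units, none called. Gzmc and Gzmb, granzymes of killer lymphocytes of which Gzmb is also made by mast cells and basophils, stand at the far end, and both fell. Gzmc fell by 1.83 ± 0.22 log2 units (SE, limma adjusted p = 0.00108). Gzmb read 11.46, 10.83 and 11.22 in the flox/flox arrays and 5.80, 7.35 and 6.99 in the Mx1Cre arrays, and fell by 4.45 ± 0.33 log2 units (SE, limma adjusted p = 5.39e-05). All 4 calls held with any array left out. These genes are similar in sequence, and cross-reaction of their probes was not tested.

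Prss34 lies in the tryptase cluster of chromosome 17. None of its 12 listed genes passed the limma test, and 0 of the 12 had an unadjusted p under 0.05. Among all 19937 genes, 3276 had an unadjusted limma p under 0.05. Tpsb2 and Tpsab1, the mast cell tryptases, read 5.90 to 6.09 and 5.25 to 5.66. Their differences were 0.09 and 0.08 log2 units. The differences of the cluster ran from -0.10 to 0.21. Of the 12 genes, 3, Tpsab1 among them, had mean levels below the lower quartile of gene levels, where a change can be understated.

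**Figure D3:**
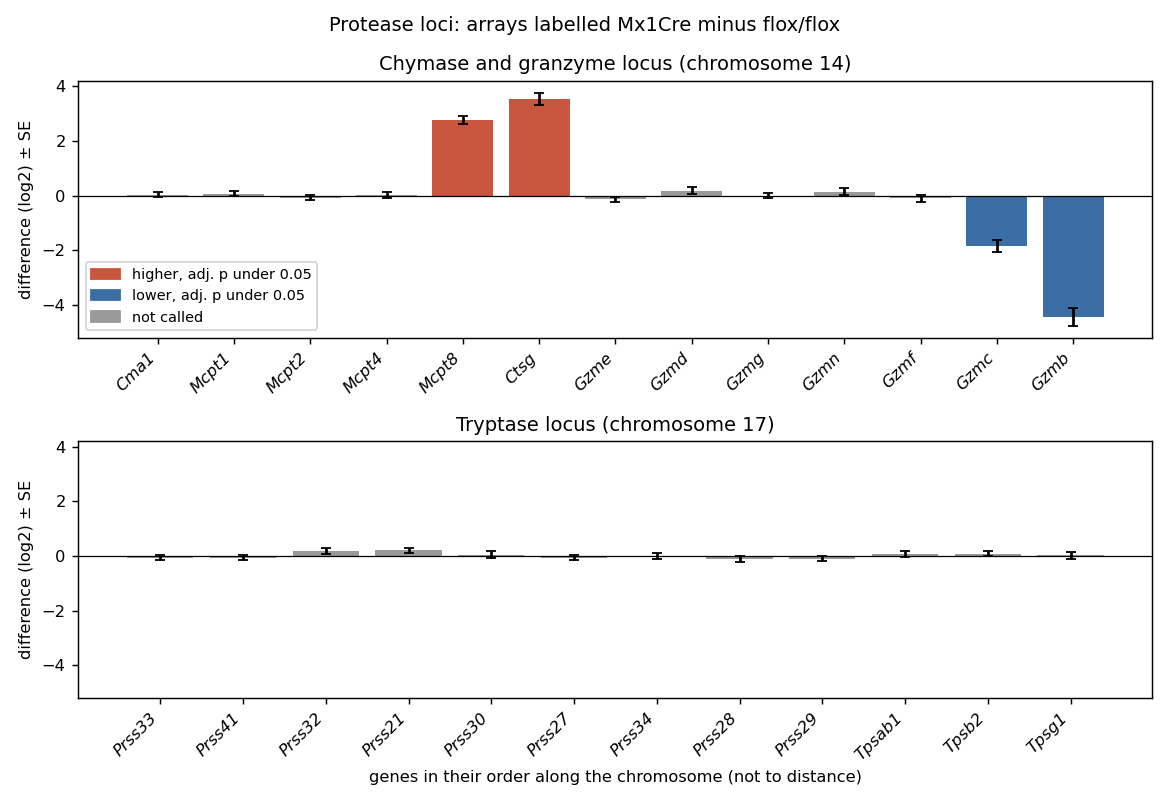
Difference in log2 value, arrays labelled Mx1Cre minus flox/flox (y axis, bars with limma SE), for the measured genes of the chymase and granzyme cluster of chromosome 14 (top) and the tryptase cluster of chromosome 17 (bottom), in chromosome order but not to distance (x axis). Mcpt8 and Ctsg rise side by side, Gzmc and Gzmb fall at the end of the same cluster, and no tryptase cluster gene is called. The uncalled genes of the top panel are dim, with mean levels below the lower quartile.

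Il1rl1 lies in the interleukin 1 receptor cluster of chromosome 1, of which 4 of 6 listed genes were measured. Il18r1, which encodes the interleukin-18 receptor chain found on basophils and lymphocytes, fell by 0.85 ± 0.17 log2 units (SE, limma adjusted p = 0.0216). It passed in 2 of 6 fits with an array left out and failed without flox/flox replicate 2, flox/flox replicate 3, Mx1Cre replicate 2 or Mx1Cre replicate 3. Il1r2, Il1rl2 and Il18rap did not pass, at -0.52, -0.31 and -0.40.

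Around the effector genes, 94 further genes of mast cell and basophil biology were listed in 6 groups, of which 89 were measured. Of these 8 rose, 16 fell and 65 did not pass, where 2.63% of all genes rose and 2.28% fell, and the median difference was -0.05 log2 units. The 16 falls became 9 when flox/flox replicate 1 was left out, 8 when flox/flox replicate 3 was, and 10 when Mx1Cre replicate 2 was. With any array left out, 6 of the 8 rises and 8 of the 16 falls still passed. With every probe set of the table as its own row, 3 rises and 6 falls passed, and the calls of Ccl3, Lmo2, Nfil3, Cd69, Cd9, Fcgr3, Itga2, Itga4, Alox5, Il6, Il18r1, Syk, Lat2 and Hes1 were lost along with that of Ms4a2. Several listed genes were chosen with earlier results of these data known, so the shares of called genes are not independent evidence.

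Of 18 granule and mediator genes 1 rose, 2 fell and 15 did not pass. Beside Ctsg and Gzmb, Alox5, the 5-lipoxygenase that starts leukotriene synthesis, fell by 1.15 ± 0.24 log2 units (SE, limma adjusted p = 0.0254). Alox5 failed without flox/flox replicate 1, flox/flox replicate 3 or Mx1Cre replicate 1. Srgn, the serglycin core on which granule proteases are packed, was bright at 12.2 to 12.4 and did not pass (-0.24 log2 units, limma adjusted p = 0.144). Ltc4s and Hpgds, the leukotriene C4 and prostaglandin D2 synthases, did not pass either, at -0.08 and 0.09.

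Of 19 surface molecule genes 6 fell and 1 rose, where 2.28% of all genes fell and 2.63% rose. Lilr4b and Lilrb4a, close relatives of which Lilrb4a encodes an inhibitory receptor of mast cells and myeloid cells, both fell. Lilr4b fell by 1.68 ± 0.14 log2 units and Lilrb4a fell by 1.19 ± 0.13 (SE, limma adjusted p 0.000154 and 0.000733). Fcgr3, a low-affinity IgG receptor, fell by 1.04 and the tetraspanin gene Cd9 fell by 0.79. The integrin genes Itga4 and Itga2 were lower, at -0.56 and -0.40, but of the 6 fits with an array left out, Itga4 passed only without flox/flox replicate 2 or Mx1Cre replicate 1, and Itga2 only without the latter. Cd69, an early activation antigen, rose by 1.18 ± 0.26 (SE, limma adjusted p = 0.0318) but of those fits passed only without flox/flox replicate 1. Cd200r3, a receptor of basophils and mast cells, was dim at 3.96 to 4.33 and differed by 0.11. The mast cell receptor genes Mrgprb1 and Mrgprb2 were as dim, reading 3.30 to 3.97.

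Of 12 cytokine receptor genes, Il7r and Il18r1 fell and 0 rose. Il7r, a receptor gene of early lymphoid cells, fell by 1.13 ± 0.12 log2 units (SE, limma adjusted p = 0.000544). Kit and Il3ra, receptors for the main growth factors of mast cells and basophils, did not pass, at 0.15 and 0.11. Of 10 secreted cytokine genes, Hgf and Ccl3 rose and Il6 fell. Hgf, which basophils can secrete, rose by 1.05 ± 0.09 log2 units (SE, limma adjusted p = 0.000178), and the chemokine gene Ccl3 by 0.69. Il6 fell by 1.45 ± 0.28 (SE, limma adjusted p = 0.0149) and failed without flox/flox replicate 1 or flox/flox replicate 3. Il4 and Il13, hallmark cytokines of basophils and mast cells, differed by -0.01 each. Il4 was dim, reading 5.49 to 5.75 over the 6 arrays, where a change can be understated. Il13 read 6.34 to 6.79.

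Of 18 transcription factor genes, Cebpa, Irf8, Nfil3 and Lmo2 rose and Hes1 fell. Irf8, a factor of monocyte, dendritic cell and basophil precursors, rose by 1.75 ± 0.10 log2 units (SE, limma adjusted p = 7.6e-06). Lmo2, an adaptor of blood stem cell and erythroid complexes, rose by 0.59. Nfil3, a leucine zipper factor, rose by 0.95, and Hes1, a Notch target, fell by 0.47, but of the 6 fits with an array left out, Nfil3 passed only without flox/flox replicate 1 or 2, and Hes1 only without flox/flox replicate 2 or Mx1Cre replicate 1. Gata2 and Mitf, the factors that mast cells require, read 7.90 to 8.33 and 6.45 to 6.78 and did not pass (-0.21 ± 0.10 and -0.001 ± 0.12 log2 units, SE). Gata1 (-0.49 log2 units, limma adjusted p = 0.191) and Spi1 (0.50, limma adjusted p = 0.0502) did not pass either.

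**Figure D4:**
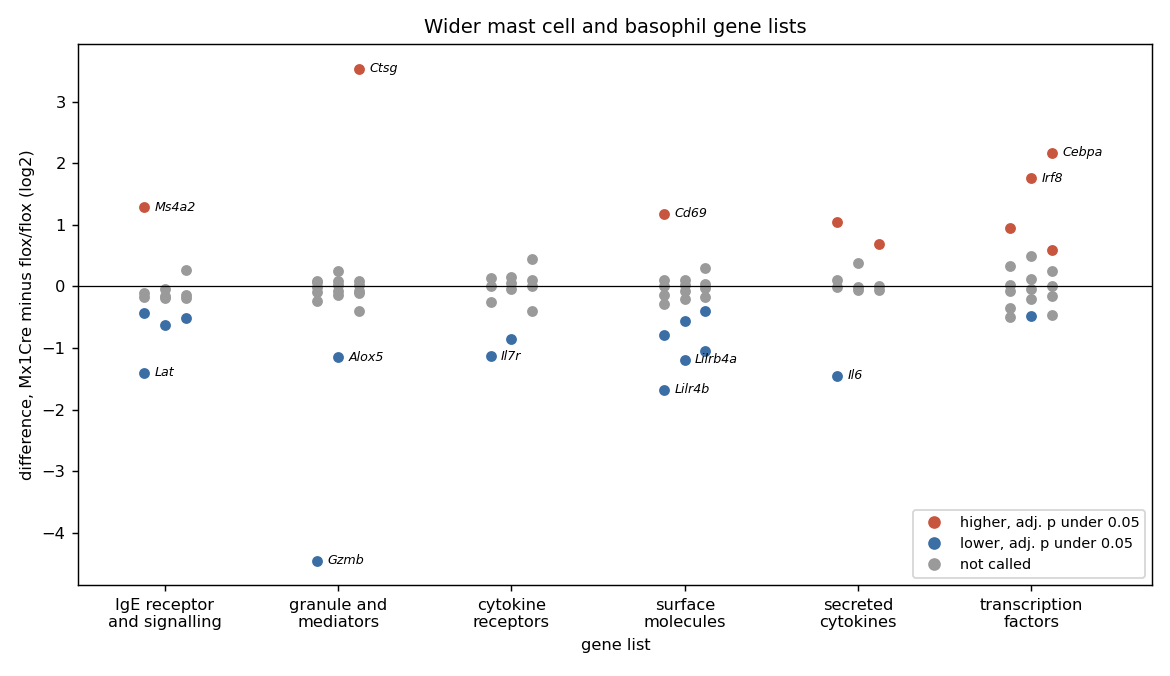
Difference in log2 value, arrays labelled Mx1Cre minus flox/flox (y axis), for each measured gene of 6 lists of mast cell and basophil biology (x axis); colours mark genes higher, lower or not called at an adjusted p under 0.05, and called genes with a difference beyond 1.1 in size are named. Most genes lie near 0, with Ctsg highest and Gzmb lowest.

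Markers of other blood cells moved with the labels as well, and their part in the values above was not tested. RMA values have no true zero, so no marker can be called absent. The marker lists too were chosen with earlier results of these data known, so their shares are not independent evidence. Over all genes, 2.63% rose and 2.28% fell. Of 12 neutrophil markers 10 rose and 0 fell, with a mean log2 value over the list of 6.68 to 6.82 in the flox/flox arrays and 8.14 to 8.63 in the Mx1Cre arrays. Of 11 monocyte and macrophage markers 8 rose and 0 fell (6.34 to 6.55 against 8.01 to 8.17). Ctsg is in the neutrophil list too. Of 12 innate lymphoid markers 7 fell and 0 rose (7.25 to 7.27 against 6.44 to 6.60), including Tox, Rora and Il7r. Of 13 T and NK cell markers Trat1 fell and 0 rose (6.36 to 6.43 against 6.00 to 6.19). Of 10 erythroid and megakaryocyte markers Car2 and Ppbp fell and 0 rose (8.08 to 8.27 against 7.54 to 7.78). Of 9 eosinophil and 7 B cell markers 0 passed the limma test, where 2 of each had an unadjusted p under 0.05. Among all 19937 genes, 3276 had such a p. The values of the labels did not overlap for 5 of the 9 eosinophil and 2 of the 7 B cell markers, against 21.6% of all genes.

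**Figure D5:**
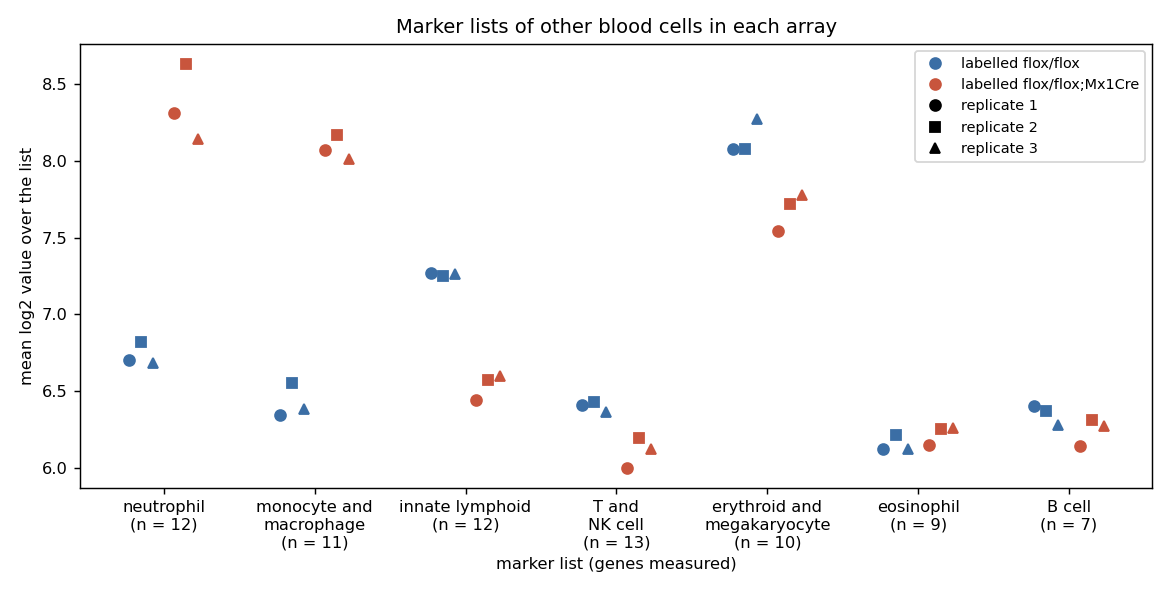
Mean log2 value over each marker list (y axis) in every array, for lists of other blood cells (x axis, with the number of genes measured); blue is labelled flox/flox, red flox/flox;Mx1Cre, and marker shapes give the replicate number. Neutrophil and monocyte lists sit higher in the red arrays, innate lymphoid, T and NK cell, and erythroid and megakaryocyte lists lower, and eosinophil and B cell lists overlap.

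Within the flox/flox label, replicate 2 stood nearest the Mx1Cre arrays for each of the 6 effector genes whose labels do not overlap. It had the highest Mcpt8 and Hdc and the lowest Cpa3, Cyp11a1, Fcer1a and Slc18a2 of its label. Over the 979 called genes, that array was the nearest of its label for 48.2%, replicate 3 for 32.4% and replicate 1 for 19.4%. Over all 4299 genes whose labels do not overlap, called or not, these shares were 40.17%, 35.38% and 24.45%. Without flox/flox replicate 2, the effector genes called numbered 2 higher and 4 lower, the added gene being Slc18a2, where 426 of all genes (2.14%) were higher and 359 (1.80%) lower. Within the Mx1Cre label, replicate 1 had the lowest value of Cpa3, Cyp11a1, Fcer1a, Slc18a2, Hdc and Rgs13.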

How the data were processed

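The deposited log2 values per probe set were made by the authors with RMA and affy, per the submitters' processing notes. Of the chip definition and the versions, the sources used here give nothing. RMA corrects background, quantile normalizes the arrays and summarises probes, and it compresses folds of dim genes. Per the labels' protocols, 20 ng of total RNA per sample was amplified before biotin labelling.

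Of 34760 probe sets, 21640 had a single gene symbol in the platform annotation, which can be old, 1321 had several and 11799 had none here. Of the single-symbol sets, 21553 were matched to the RefSeq gene table (GRCm38.p6) by Entrez number, changing 0 symbols. The set of highest mean stood for a gene, giving 19937 genes. All members matched to the promoter table by symbol.

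Differences (Mx1Cre minus flox/flox) were fitted in R 4.3.3 by limma 3.58.1, using lmFit and eBayes with no block, and adjusted by Benjamini-Hochberg over all genes. The code of the test was checked on simulated data with independent normal noise, which holds no effect shared by the genes of an array. That check therefore says nothing of such effects in these arrays. Lists were described by counts and medians. The named genes are all members and Cebpa, IgE receptor chains, sort gate genes and the called genes of the wider, locus, RGS and amine lists. Of the marker lists, the uncalled locus genes and the bright genes of the other lists, only some were named. Some list genes that did not pass were named outside this rule, for what they are known to do. Members and lists were chosen with earlier results of these data known. The number of arrays, 3 per label, limits the precision. No protein table was used here, so protein identity was not computed.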

Additional observations from a re-analysis of the deposited data

How the results depend on the processing

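Over 183 values of the member genes and Cebpa under the alternatives, 163 kept direction and call. The calls of Mcpt8, Hdc, Cpa3, Cyp11a1 and Fcer1a held with each array left out. Leaving out 1 array gave 268 to 455 genes higher and 226 to 359 lower, 8 to 14 wider-list genes lower, Slc18a2 at -0.91 to -0.54, Prss34 at -0.11 to 0.10, Cma1 at -0.054 to 0.10 and Rgs13 at -0.028 to 0.15 log2 units. Fewer arrays also lower the power. Slc18a2 passed with array weights (-0.68), cyclic loess (-0.73), a robust prior with a trend, either filter on dim genes, and a threshold of 0.1 (-0.74 each). Prss34 changed sign with cyclic loess, to 0.023. A Welch test, where each gene's spread comes from its own values, called 0 genes higher and 0 lower (unadjusted p-values under 0.05 numbered 2124, and 3276 with limma), hence 0 members and 0 wider-list genes in each direction. Differences were unchanged there, at 2.17 for Cebpa, 2.77 for Mcpt8, -0.81 for Cpa3, -1.75 for Fcer1a, 1.54 for Hdc and -1.23 for Cyp11a1. At a threshold of 0.01, 208 genes were higher and 181 lower, and 5 and 8 wider-list genes; at 0.1, 692 genes were lower. With every probe set as a row, 141 genes were higher and 103 lower, and 3 and 6 wider-list genes, and Fcer1a (-1.75) did not pass; the cause was not tested.

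Same-numbered arrays correlated in their deviations at 0.19, 0.05 and 0.17. Since the value for replicate 2 is low, the numbers were not taken to pair the mice, although 5 of 6 arrays correlated best with their own number, a hint of pairing from the data and not the design. With the replicate number as a block, 602 genes were higher and 487 lower, and no member's call changed.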
